A study of Homo sapiens with 18 samples.

Results

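Keratins are the intermediate filament proteins of epithelial cells, and their messenger RNAs were followed across 6 groups of HCC827 cells, a human lung adenocarcinoma line with a mutant EGFR gene. Members were all array probes whose annotated symbol is KRT with a number and at most 1 further letter, which leaves out the keratin-associated proteins. The rule found 58 probes of 49 genes among the 47323 probes (20046 annotated genes) of the array, 36 probes of 28 type I genes and 22 probes of 21 type II genes. The rule used no measured value. The keratins KRT17, KRT6A, KRT6B, KRT81, KRT82 and KRT86 had no probe annotated to them and were not analysed here.

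All 6 groups were HCC827 cells, on 3 Illumina bead arrays each. Cells given TGFB1, a growth factor that can turn epithelial cells mesenchymal, were set against untreated parental cells. Their sample labels give 30 days of TGFB1, whereas 72 hours at 10 ng/mL stand in the series text. Cells labelled as overexpressing SNAIL with a V5 tag from a lentivirus (SNAIL, pLX303) were set against cells with a lacZ virus (lacZ, pLX303). The titles of the cells labelled SNAIL name pLX303-lacZ as well as SNAIL-V5, and which insert the virus held is not settled by the labels. Cells whose CDH1 messenger, which encodes the adhesion protein E-cadherin, was targeted by a hairpin RNA (shCDH1, pLKO1) were set against cells with a hairpin that has no target (shNT, pLKO1). Parental cells carried no virus, and the labels name no vehicle for them. The labels do not say that the arrays of a group came from separate cultures, so the p-values measure a spread between arrays that may be technical. In every group the titles number the arrays 1, 2 and 3 but the descriptions number them 1, 1 and 2, so the first 2 may be repeats of 1 sample. With those 2 averaged first, 14, 12 and 9 keratin probes were called for TGFB1, SNAIL and shCDH1, in place of 13, 12 and 10 over 3 arrays.

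Levels are log2 intensities after background correction and quantile normalization, and a log2 difference of 1 is a doubling. Deposited array medians ran from 152 to 236 intensity units, arrays of 1 group correlated at 0.989 or more, and each of the 18 arrays correlated best with another array of the same group. CDH1 stood at 8.82, 8.84 and 8.14 in shCDH1 cells, against 13.02, 13.04 and 12.94 in shNT cells. In cells labelled SNAIL, CDH1 stood at 7.55, 7.50 and 7.46, against 13.15, 13.13 and 13.09 in lacZ cells. The probe of SNAI1, the gene of SNAIL, gave 6.04, 6.15 and 6.28 in cells labelled SNAIL, against 6.29, 6.10 and 6.49 in lacZ cells, all near background. The SNAIL label therefore has no check from this probe, and whether the probe binds the transcript of the virus was not tested. Of the other cell types looked for, the blood cell markers PTPRC and CD3E were near background in all 6 groups, CD14 was above it in all 6 (means 7.11 to 8.73) and FCER1G in TGFB1 cells only (7.44). The endothelial markers PECAM1 and ESAM were above background in TGFB1 cells only, at most at 7.44, and CDH5, TEK and KDR in no group. Of the 5 epithelial markers EPCAM, CDH1, ELF3, ESRP1 and CLDN4, 3, 4 and 5 were lower in TGFB1 cells, cells labelled SNAIL and shCDH1 cells and none was higher, though the CDH1 call with TGFB1 (log2 -0.35, adjusted p = 0.0434) was lost without any 1 of its 6 arrays (adjusted p = 0.0512 to 0.153). The part of these markers in the keratin results was not tested.

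Keratin filaments are built from pairs, each of a type I and a type II keratin. Simple epithelia, which include the lining of the lung, pair KRT8 or KRT7 with KRT18 or KRT19. Stratified epithelia use KRT5 with KRT14 or KRT15 in the basal layer and KRT1 with KRT10 or KRT4 with KRT13 above it, and hair and nail have keratins of their own. Loss of keratins and gain of vimentin, the intermediate filament of mesenchymal cells, are textbook features of epithelial to mesenchymal transition, the change that the series was set up to follow.

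A probe was taken as near background where its mean lay at or below 7.06, the 95th percentile of 457 probes for olfactory receptor genes, whose receptors belong to the sensory lining of the nose. By this measure 39 of the 58 keratin probes (34 genes) lay near background in all 6 groups, with group means from 5.86 to 7.05. Another 19 probes of 15 genes were above it in at least 1 group, while 50.3% of all probes on the array were. Only 7 of the 58 were above it in every group, namely those of KRT7, KRT8, KRT10 and KRT15, 1 of the 2 probes of KRT18 and both of KRT80. Only in the class of simple epithelia were all probes, 7 of 5 genes, above background in at least 1 group. Among hair and nail keratins 1 of 18 probes was above it, among hair follicle sheath keratins 2 of 11, and among keratins of differentiating stratified epithelia 4 of 12. Of the basal layer keratins the probe of KRT15 was above background, and those of KRT5 and KRT14 lay near it in all groups.

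**Figure D1:**
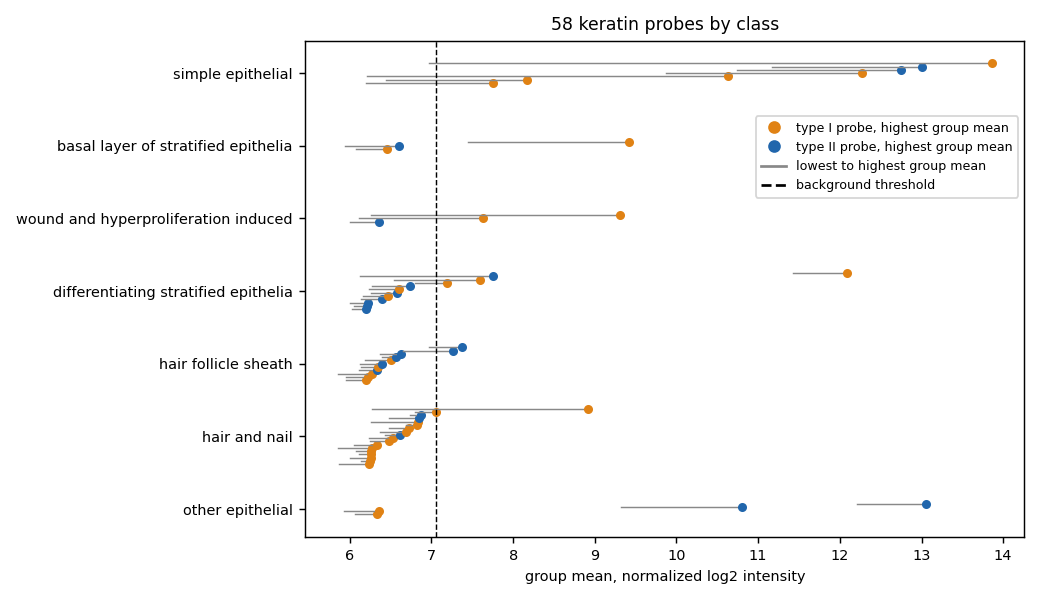
Range of group means for each of the 58 keratin probes (horizontal axis, normalized log2 intensity), by class. Each line runs from the lowest to the highest of 6 group means, the dot marks the highest, and the dashed line is the background threshold of 7.06. Only in the simple epithelial class do all dots lie above the threshold, and most hair and nail probes lie under it. Levels of different probes cannot be set against each other.

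The probe of KRT73, a hair follicle sheath keratin, had its highest group mean at 7.37 and was above the threshold in 5 groups. KRT75 (7.26) and KRT9 (7.20) each passed it in 1 group, in cells labelled SNAIL, and KRT31 (7.05) and KRT83 (6.87) were the nearest below. None of these 5 was called in a treated group against its own control or in a virus control against parental cells. With parental cells as control in place of lacZ cells, KRT75 (log2 0.61, adjusted p = 0.000915 by limma) and KRT9 (0.36, adjusted p = 0.0392) were called higher in cells labelled SNAIL.

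The same arrays were read through 1 linear model over all probes, and a probe was called at an adjusted p below 0.05 (limma, Benjamini-Hochberg over 47321 probes, two-sided). In TGFB1 cells 13 keratin probes were called against parental cells, 2 higher and 11 lower, or 22.4% of keratin probes beside 20.4% of all probes. Against lacZ cells 12 were called in cells labelled SNAIL, 3 higher and 9 lower, or 20.7% beside 24.1%. In shCDH1 cells 10 were called against shNT cells, 4 higher and 6 lower, or 17.2% beside 22.7%. Over all 58 probes the share called in each comparison thus lay near that of all probes. The 39 keratin probes near background in all 6 groups held only 2, 1 and 0 of these calls. Above background in at least 1 group were 19 of the 58, beside 50.3% of all probes. The shares therefore do not compare keratins with other probes of like signal. In each comparison more keratin probes were called lower than higher. Over all probes 10.6%, 11.6% and 10.3% were called lower and 9.81%, 12.5% and 12.5% higher, in the same order of comparisons. In shCDH1 cells the lower calls of KRT4, KRT20 (ILMN_1794729) and KRT16 (ILMN_2228162) came with both groups near background. With TGFB1 the lower calls included both probes of KRT20, both of KRT16 and that of KRT4. These were also lower in both virus controls against parental cells. Over all 58 keratin probes the median log2 difference was -0.04, -0.07 and -0.03, beside -0.00, -0.00 and 0.01 over all probes, and 19 of the 58 keratin probes were called in at least 1 of the 5 comparisons of 2 groups, beside 42.3% of all probes.

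**Figure D2:**
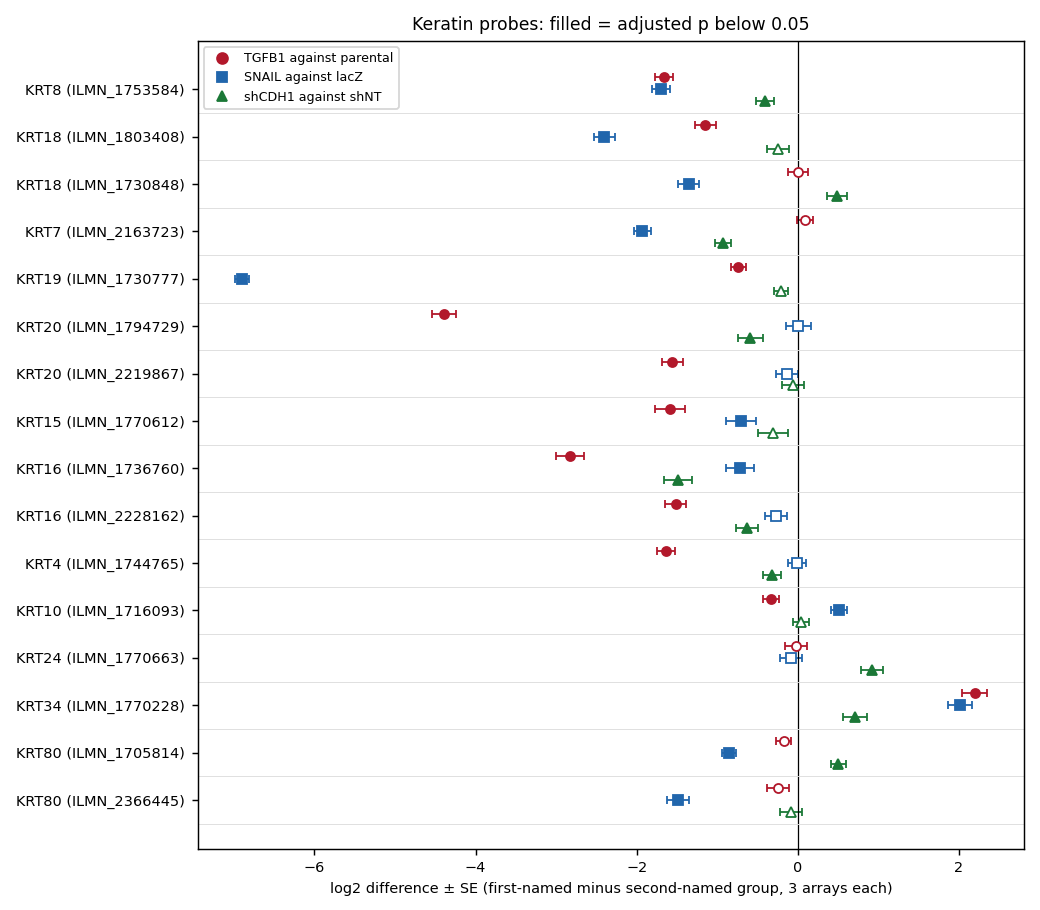
Log2 difference ± standard error (horizontal axis) of the 16 probes of 12 keratin genes that were above background in a group and called in a comparison, in TGFB1 against parental, SNAIL against lacZ and shCDH1 against shNT cells (3 arrays a group). Filled symbols passed an adjusted p of 0.05. KRT19 in cells labelled SNAIL stands farthest to the left, at -6.90, and KRT34 lies to the right in all 3 comparisons.

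In all 3 comparisons 2 keratin probes were lower, those of KRT8 and 1 of KRT16, as were 2.61% of all probes. The probe of KRT34 alone was higher in all 3, as were 2.02% of all probes.

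**Figure D3:**
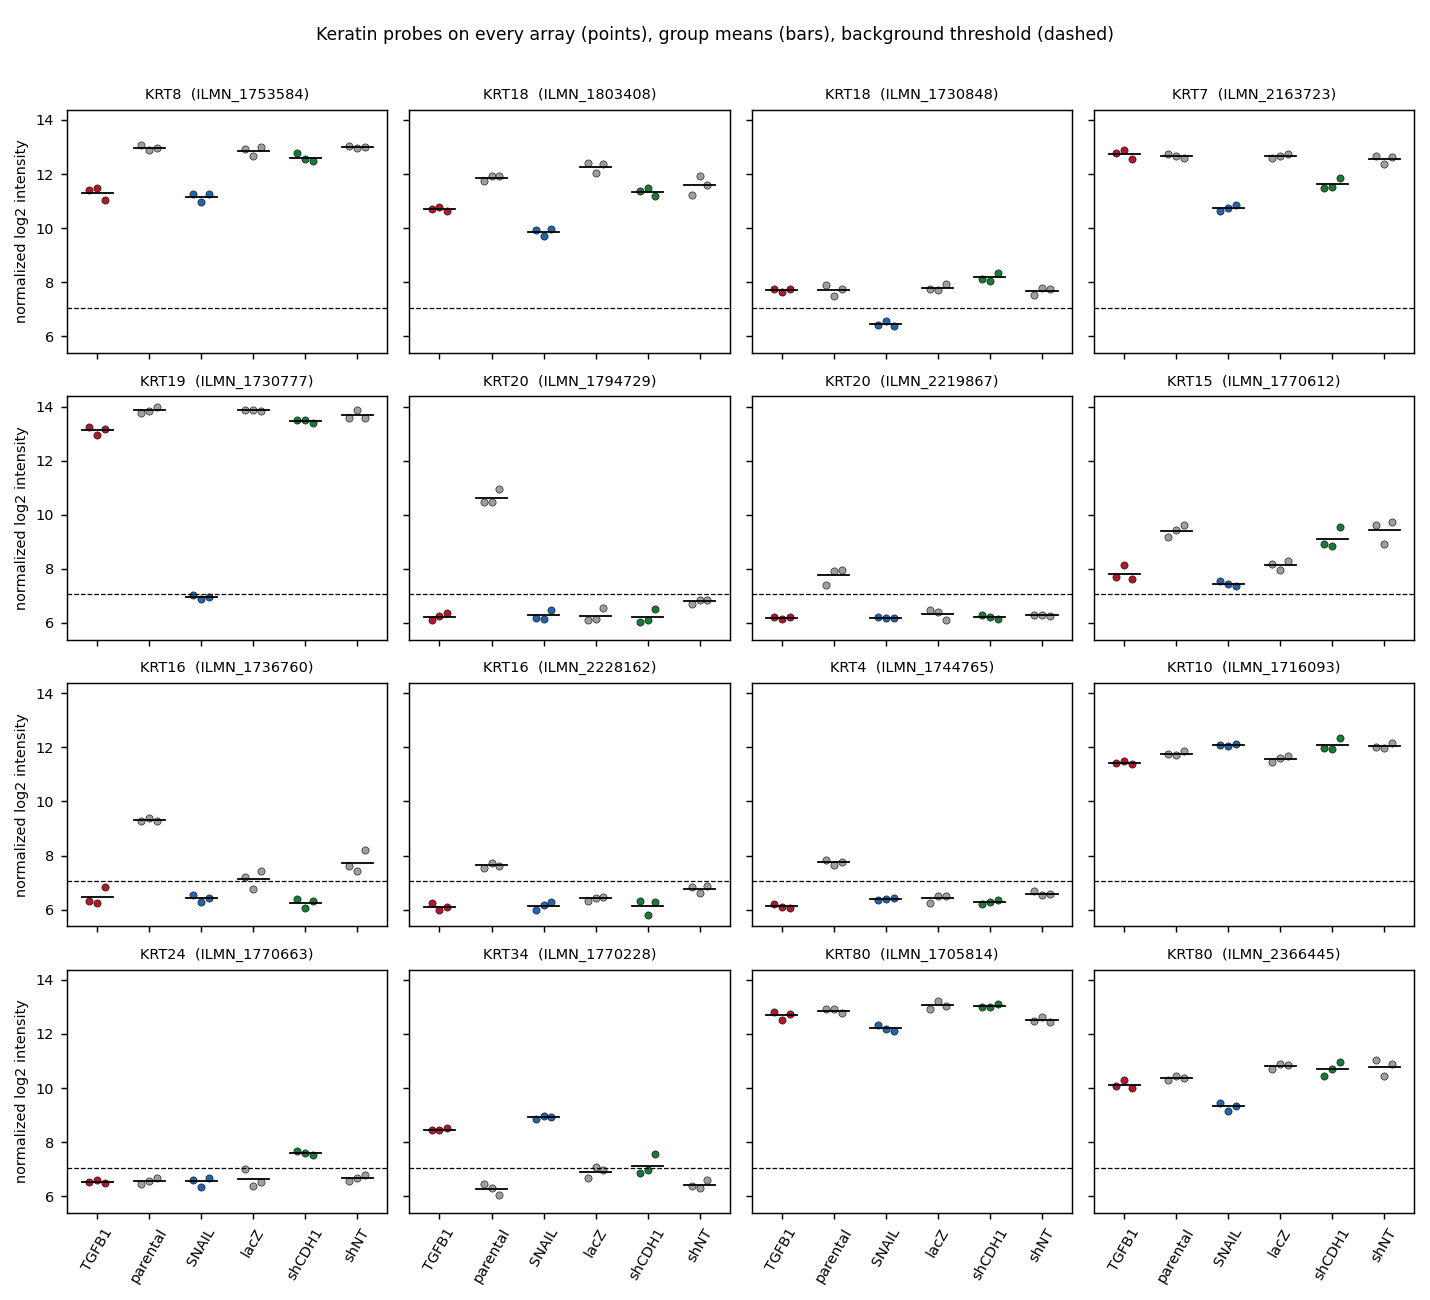
Normalized log2 intensity (vertical axis) of the 16 probes on each of the 18 arrays (points), with group means (bars) and the background threshold of 7.06 (dashed). KRT19 lies under the threshold on all 3 arrays of cells labelled SNAIL, and KRT20 and KRT4 lie above it in parental cells only.

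KRT8, the type II keratin of simple epithelia, fell by a similar amount with TGFB1 and in cells labelled SNAIL, and less in shCDH1 cells. Its level was 11.40, 11.48 and 11.05 in TGFB1 cells, against 13.07, 12.89 and 12.97 in parental cells. It was 11.25, 10.98 and 11.27 in cells labelled SNAIL, against 12.93, 12.65 and 13.02 in lacZ cells. In shCDH1 cells it was 12.76, 12.56 and 12.48, against 13.03, 12.98 and 13.01 in shNT cells. Every treated array lay under all arrays of its control, and fewer cells with KRT8 messenger cannot be told apart here from less of it in each cell. The log2 difference was -1.66 ± 0.11 with TGFB1 (SE, adjusted p = 4.83e-13 by limma), -1.70 ± 0.11 in cells labelled SNAIL (adjusted p = 1.95e-13) and -0.41 ± 0.11 in shCDH1 cells (adjusted p = 0.00563), that is 3.17-fold, 3.25-fold and 1.32-fold lower. The TGFB1 and SNAIL effects differed by 0.04, with a 95% confidence interval of -0.28 to 0.35. Both were larger falls than that of shCDH1 cells, with differences of effects of -1.26 and -1.30 (adjusted p = 2.84e-07 and 1.36e-07). Without normalization between arrays the shCDH1 call was lost (adjusted p = 0.129). Neither control virus moved KRT8 past the threshold against parental cells (lacZ -0.11, shNT 0.03).

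KRT18, the type I partner of KRT8, has 2 probes that did not move together, annotated to RefSeq transcripts NM_000224 and NM_199187. The NM_000224 probe (ILMN_1803408) stood at 10.72, 10.79 and 10.64 in TGFB1 cells, against 11.75, 11.92 and 11.94 in parental cells. It stood at 9.95, 9.70 and 9.96 in cells labelled SNAIL, against 12.42, 12.03 and 12.36 in lacZ cells. It was thus 2.22-fold lower with TGFB1 (log2 -1.15 ± 0.13, adjusted p = 6.29e-08 by limma) and 5.28-fold lower in cells labelled SNAIL (-2.40 ± 0.13, adjusted p = 6.15e-15), and the 2 effects differed by 1.25 (adjusted p = 6.27e-06). That difference lost its call without normalization between arrays (0.88, adjusted p = 0.0663). In shCDH1 cells it stood at 11.37, 11.47 and 11.18, against 11.23, 11.92 and 11.61 in shNT cells, which overlap (-0.25, adjusted p = 0.22). Without shNT replicate 1 that difference was called, at -0.43 (adjusted p = 0.0163).

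The NM_199187 probe of KRT18 (ILMN_1730848) was nearer to background. It stood at 7.76, 7.62 and 7.74 in TGFB1 cells, against 7.90, 7.49 and 7.74 in parental cells, with no difference past the threshold (log2 0.00 ± 0.13). It was near background in cells labelled SNAIL, at 6.42, 6.55 and 6.37, against 7.76, 7.72 and 7.93 in lacZ cells, which is at least 1.68-fold lower (adjusted p = 7.37e-10 by limma). Such a bound sets the dimmer group to the background threshold. Where a group mean lay near background a fold is given only as such a bound, and a log2 difference printed for that pair is the fitted value, whose size the arrays do not measure. In shCDH1 cells the same probe was higher, at 8.12, 8.05 and 8.35, against 7.52, 7.78 and 7.77 in shNT cells (0.48 ± 0.13, adjusted p = 0.00464), a call lost without normalization between arrays (adjusted p = 0.0763). For TGFB1 and shCDH1 cells the data therefore give no single direction for KRT18. KRT8, KRT18 and KRT19 have processed pseudogenes of like sequence in the human genome, and whether these probes also bind transcripts of those was not tested.

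KRT7, a type II keratin of ducts and lung epithelium and a routine marker of lung adenocarcinoma, moved in 2 of the 3 comparisons. Its level was 10.65, 10.73 and 10.87 in cells labelled SNAIL, against 12.60, 12.68 and 12.75 in lacZ cells. It was 11.49, 11.53 and 11.84 in shCDH1 cells, against 12.65, 12.39 and 12.61 in shNT cells. With TGFB1 it was 12.78, 12.89 and 12.56, against 12.73, 12.66 and 12.60 in parental cells, and these overlap. KRT7 was thus 3.81-fold lower in cells labelled SNAIL (log2 -1.93 ± 0.10, adjusted p = 1.94e-15 by limma) and 1.91-fold lower in shCDH1 cells (-0.93 ± 0.10, adjusted p = 1.84e-08). The TGFB1 difference was 0.08, with a 95% confidence interval of -0.12 to 0.29. The TGFB1 effect differed from the SNAIL effect by 2.01 (adjusted p = 4.36e-12) and from the shCDH1 effect by 1.02 (adjusted p = 2.96e-06).

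KRT19, the type I keratin without a tail domain, gave the largest difference of all keratin probes. In cells labelled SNAIL it stood at 7.04, 6.89 and 6.97, all near background, against 13.89, 13.87 and 13.83 in lacZ cells. In deposited units these are intensities of 200.2 to 221 in cells labelled SNAIL, against 14711 to 15628 in lacZ cells. KRT19 was thus at least 112-fold lower (log2 -6.90 ± 0.09, adjusted p = 4.61e-29 by limma). Across the alternatives tried the log2 difference ran from -7.35 to -6.14. Parental cells stood at 13.77, 13.84 and 13.97, the same range as lacZ cells.

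KRT19 fell far less with TGFB1, to 13.24, 12.96 and 13.17 in TGFB1 cells, against those parental values (log2 -0.74 ± 0.09, adjusted p = 1.25e-07 by limma). The difference between the TGFB1 and SNAIL effects was called (adjusted p = 1.25e-23), and no size is given for it because the SNAIL effect is a bound. In shCDH1 cells it stood at 13.51, 13.50 and 13.40, against 13.59, 13.86 and 13.58 in shNT cells. These do not overlap, yet the difference did not pass (-0.21 ± 0.09, adjusted p = 0.105, 95% confidence interval -0.39 to -0.02). The intensities of KRT19 in bright groups come close to the highest of any probe, 15951 to 20729 by array, so differences between the brightest groups may be compressed, which was not tested.

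KRT20, a type I keratin of the gut lining and of urothelium, was above background in parental cells only. Its brighter probe (ILMN_1794729) stood at 6.11, 6.24 and 6.35 in TGFB1 cells, against 10.49, 10.45 and 10.95 in parental cells. The second probe (ILMN_2219867) stood at 6.22, 6.15 and 6.23 in TGFB1 cells, against 7.39, 7.92 and 7.97 in parental cells. All 3 arrays of TGFB1 cells were near background with both probes. KRT20 was thus at least 11.9-fold lower by the first probe (adjusted p = 1.74e-19 by limma) and at least 1.62-fold lower by the second (adjusted p = 1.49e-10).

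The loss of KRT20 was not particular to TGFB1. With the first probe lacZ cells stood at 6.09, 6.16 and 6.56 and shNT cells at 6.71, 6.86 and 6.85, all near background as well. Against the same parental arrays, lacZ and shNT cells were each at least 11.9-fold lower (adjusted p = 2.23e-18 and 1.58e-16 by limma). Cells labelled SNAIL (6.20, 6.16 and 6.47) showed no difference past the threshold from lacZ cells (log2 0.01, adjusted p = 0.984), but were at least 11.9-fold lower than parental cells (adjusted p = 8.21e-20). shCDH1 cells, at 6.04, 6.10 and 6.51, lay under shNT cells with both near background (-0.59 ± 0.15, adjusted p = 0.00351), so no fold is given.

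KRT15 and KRT16, type I keratins, stood for the basal and wound-related classes. KRT15, a basal layer keratin, had levels of 7.72, 8.13 and 7.61 in TGFB1 cells, against 9.16, 9.45 and 9.61 in parental cells. It had 7.55, 7.43 and 7.36 in cells labelled SNAIL, against 8.19, 7.97 and 8.30 in lacZ cells. In shCDH1 cells it had 8.93, 8.86 and 9.55, against 9.61, 8.91 and 9.73 in shNT cells, which overlap. KRT15 was 3.01-fold lower with TGFB1 (log2 -1.59 ± 0.19, adjusted p = 9.91e-08 by limma) and 1.63-fold lower in cells labelled SNAIL (-0.71 ± 0.19, adjusted p = 0.00470). The shCDH1 difference of -0.31 did not pass (adjusted p = 0.299), but was called without shCDH1 replicate 3 (-0.53, adjusted p = 0.0388) or without shNT replicate 2 (-0.56, adjusted p = 0.0197). Its TGFB1 effect minus its SNAIL effect was -0.88 (adjusted p = 0.0169), a call lost when parental replicate 3, TGFB1 replicate 3 or lacZ replicate 2 was left out (adjusted p = 0.0560, 0.0575 and 0.0568). The level itself was not lower with TGFB1, with means of 7.82 in TGFB1 cells and 7.45 in cells labelled SNAIL. The controls differed, with means of 9.41 in parental and 8.15 in lacZ cells.

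KRT16, which is induced in wounded and hyperproliferating skin, was lower in all 3 comparisons by the first of its probes (ILMN_1736760). It stood at 6.33, 6.26 and 6.84 in TGFB1 cells, against 9.28, 9.37 and 9.26 in parental cells. It stood at 6.54, 6.30 and 6.43 in cells labelled SNAIL, against 7.22, 6.77 and 7.43 in lacZ cells. It stood at 6.39, 6.06 and 6.32 in shCDH1 cells, against 7.60, 7.43 and 8.19 in shNT cells. All treated arrays were near background. KRT16 was therefore at least 4.74-fold lower with TGFB1 (adjusted p = 1.38e-13 by limma), at least 1.06-fold lower in cells labelled SNAIL (adjusted p = 0.00220) and at least 1.61-fold lower in shCDH1 cells (adjusted p = 8.45e-08). Only 2 of the 3 lacZ arrays were above background. The second probe (ILMN_2228162) was above background in parental cells only and was at least 1.49-fold lower with TGFB1 (adjusted p = 3.86e-10). With both groups near background it gave log2 differences of -0.27 in cells labelled SNAIL (adjusted p = 0.179) and -0.63 in shCDH1 cells (adjusted p = 0.000573). KRT16 is close in sequence to KRT14 and KRT17, and whether its probes also bind those was not tested.

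Of the 12 keratins of differentiating stratified epithelia, KRT4, KRT10 and KRT24 were called and above background somewhere. KRT4, a type II keratin of internal stratified epithelia such as the oesophagus, stood at 6.21, 6.10 and 6.07 in TGFB1 cells, against 7.85, 7.67 and 7.76 in parental cells. Only parental cells were above background, and TGFB1 cells were at least 1.63-fold lower (adjusted p = 1.28e-12 by limma). The lacZ cells, at 6.24, 6.49 and 6.51, and the shNT cells, at 6.67, 6.53 and 6.58, were likewise each at least 1.63-fold under parental cells (adjusted p = 3.80e-10 and 1.62e-08). KRT4 differed by -0.01 in cells labelled SNAIL (adjusted p = 0.966). In shCDH1 cells it differed by -0.32 (adjusted p = 0.0391) with both groups near background, a call lost without shCDH1 replicate 1 or 2 or without shNT replicate 1 or 3 (adjusted p = 0.0796 to 0.146).

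KRT10, the type I keratin of the upper epidermis, was bright in every group and moved both ways. It stood at 11.42, 11.49 and 11.38 in TGFB1 cells, against 11.74, 11.70 and 11.86 in parental cells. It stood at 12.09, 12.04 and 12.13 in cells labelled SNAIL, against 11.47, 11.59 and 11.66 in lacZ cells. The groups of each pair did not overlap. KRT10 was lower with TGFB1 (log2 -0.34 ± 0.10, adjusted p = 0.0130 by limma) and higher in cells labelled SNAIL (0.51 ± 0.10, adjusted p = 0.000138), and the TGFB1 effect minus the SNAIL effect was -0.85 (adjusted p = 2.49e-05). The TGFB1 call was lost without parental replicate 3 (-0.29, adjusted p = 0.0743), and the SNAIL call without normalization between arrays (0.41, adjusted p = 0.204). In shCDH1 cells it differed by 0.04 (adjusted p = 0.846).

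KRT24 was above background in shCDH1 cells only, at 7.69, 7.59 and 7.52, against 6.55, 6.69 and 6.80 in shNT cells. It was at least 1.46-fold higher there (log2 0.92 ± 0.14, adjusted p = 4.66e-06 by limma). With TGFB1 and in cells labelled SNAIL its differences were -0.02 and -0.09, neither past the threshold, and both effects were called as different from the shCDH1 effect (adjusted p = 0.000534 and 0.000208), with no size given because the other groups lay near background. The other 8 probes of this class, apart from that of KRT9 described above, lay near background in all groups.

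KRT34, a type I hair keratin of the hair cortex, rose in all 3 comparisons. It stood at 8.44, 8.44 and 8.51 in TGFB1 cells, against 6.46, 6.31 and 6.04 in parental cells. It stood at 8.84, 8.98 and 8.93 in cells labelled SNAIL, against 6.68, 7.08 and 6.96 in lacZ cells. It stood at 6.86, 6.96 and 7.56 in shCDH1 cells, against 6.36, 6.30 and 6.59 in shNT cells. Parental and shNT cells were near background on all arrays, as was the mean of lacZ cells, while 1 of 3 lacZ arrays and 1 of 3 shCDH1 arrays were above it. KRT34 was at least 2.66-fold higher with TGFB1 (adjusted p = 1.47e-12 by limma), at least 3.61-fold higher in cells labelled SNAIL (adjusted p = 6.91e-12) and at least 1.05-fold higher in shCDH1 cells (adjusted p = 0.000541). With all 3 controls near background, no size is given for the differences between these effects. The lacZ cells differed from parental cells by 0.63 on the log2 scale (adjusted p = 0.00560) with both means near background, a call lost without lacZ replicate 2 (adjusted p = 0.0527) or parental replicate 3 (adjusted p = 0.0627). Of the other 17 probes of hair and nail keratins none was above background.

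The stretch of 250 bases before the listed start is shown for KRT20 and KRT4, lost in every group but parental cells, and for KRT34, which rose, from the RefSeq promoter table of build GRCh38.p14. Each reads 5′ to 3′ on the minus strand and ends at the base before the start. KRT20 lies at chr17:40885243-40885492, KRT4 at chr12:52814117-52814366 and KRT34 at chr17:41382307-41382556. Capitals mark TATAAA, the core of a TATA box, at -31 in KRT34.
KRT20: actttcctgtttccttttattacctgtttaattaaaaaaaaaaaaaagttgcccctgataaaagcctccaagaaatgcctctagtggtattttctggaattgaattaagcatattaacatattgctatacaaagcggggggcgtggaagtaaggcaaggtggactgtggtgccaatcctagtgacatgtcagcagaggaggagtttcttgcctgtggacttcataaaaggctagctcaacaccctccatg
KRT4: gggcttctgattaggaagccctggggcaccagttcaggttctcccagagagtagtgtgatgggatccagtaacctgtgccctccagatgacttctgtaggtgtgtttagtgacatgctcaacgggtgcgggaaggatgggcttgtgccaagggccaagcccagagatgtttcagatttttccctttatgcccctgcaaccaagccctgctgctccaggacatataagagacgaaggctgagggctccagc
KRT34: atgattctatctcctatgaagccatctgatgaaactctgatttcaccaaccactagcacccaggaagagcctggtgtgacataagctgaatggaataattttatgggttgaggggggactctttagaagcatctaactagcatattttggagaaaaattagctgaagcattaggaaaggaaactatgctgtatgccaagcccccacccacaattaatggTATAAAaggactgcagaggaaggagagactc
Both strands were searched for TATAAA, for CAGGTG (the E-box that SNAIL-family factors bind) and for TGANTCA (an AP-1 site). TATAAA stood in 10.7% of 35116 such promoters and in 20 of 37 keratin entries, CAGGTG in 17.5% and in 6 of 37, and TGANTCA in 6.57% and in 0 of 37. KRT20 and KRT4 held none of the 3 motifs. The table's start of KRT34 is not the outermost start of that gene in RefSeq. Of the 49 keratin genes 33 had an entry, and of the 12 genes described here 6.

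KRT80, a type II keratin of many epithelia, was bright with both of its probes, which are annotated to the same transcript, NM_182507. The first (ILMN_1705814) stood at 12.34, 12.18 and 12.11 in cells labelled SNAIL, against 12.93, 13.23 and 13.02 in lacZ cells. The second (ILMN_2366445) stood at 9.45, 9.17 and 9.34 in cells labelled SNAIL, against 10.70, 10.88 and 10.84 in lacZ cells. By both KRT80 was lower, with log2 differences of -0.85 ± 0.09 (adjusted p = 9.49e-09 by limma) and -1.48 ± 0.14 (adjusted p = 5.28e-10). In shCDH1 cells the first was higher, at 12.98, 12.98 and 13.10, against 12.48, 12.64 and 12.44 in shNT cells (0.50 ± 0.09, adjusted p = 7.38e-05), and the second did not differ past the threshold (-0.08, adjusted p = 0.773). With parental cells in place of shNT cells the first was not called either (0.16, adjusted p = 0.259). With TGFB1 the differences were -0.18 and -0.25 (adjusted p = 0.20 and 0.24). The 2 probes also moved in opposite directions in shNT against parental cells (-0.34 and 0.41), and of the 5 pairs of groups both were called in 1 direction only for cells labelled SNAIL. In shNT against parental cells the call of the first probe was lost without shNT replicate 3 (-0.30, adjusted p = 0.0590). That of the second probe was lost there without any of 5 of the 6 arrays (adjusted p = 0.0708 to 0.257).

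The remaining 3 calls fell on probes near background in all 6 groups, where no fold is given. With TGFB1 the probe of KRT5, the basal type II keratin, gave a log2 difference of 0.55 ± 0.14 (adjusted p = 0.00477 by limma). The probe ILMN_1659230 of the hair keratin KRT35 gave -0.41 (adjusted p = 0.0463), while its other probe gave 0.22 (adjusted p = 0.349). In cells labelled SNAIL the hair keratin KRT33B gave 0.49 (adjusted p = 0.0114).

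Because the virus controls had their own differences from parental cells, the keratins were also compared between the control groups. In lacZ cells 8 keratin probes were called against parental cells, 2 higher and 6 lower, or 13.8% beside 7.87% of all probes (4.07% higher and 3.8% lower). In shNT cells 7 were called, 1 higher and 6 lower, or 12.1% beside 14% (6.88% higher and 7.13% lower). Lower in both were 5 probes, both of KRT20, both of KRT16 and that of KRT4, as were 1.69% of all probes, and 1 KRT80 probe (ILMN_2366445) was higher in both, as were 1.63%. Its lacZ call (0.43, adjusted p = 0.0496) was lost without any 1 of the 6 arrays (adjusted p = 0.0649 to 0.175). These comparisons share the parental arrays. KRT16 by its first probe was 4.48-fold lower in lacZ cells (log2 -2.16 ± 0.17, adjusted p = 2.15e-10 by limma) and 2.95-fold lower in shNT cells (-1.56 ± 0.17, adjusted p = 2.77e-07). KRT15 was lower in lacZ cells (-1.25 ± 0.19, adjusted p = 1.67e-05), and in shNT cells it differed by 0.01 (adjusted p = 0.982). The mesenchymal filament gene VIM also differed between lacZ and parental cells, with means of 12.86 ± 0.04 and 10.27 ± 0.08 (SD, n = 3 each; log2 2.59, adjusted p = 6.67e-16), and its part in the keratin differences was not tested.

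Which keratins were called with TGFB1 depended on the control. Set against lacZ cells in place of parental cells, TGFB1 cells had 7 keratin probes called in place of 13. KRT8 (log2 -1.56), KRT18 by its NM_000224 probe (-1.56), KRT19 (-0.74), KRT16 by its first probe (at least 1.06-fold lower) and KRT34 (at least 2.64-fold higher) remained called (adjusted p at most 0.00662 by limma). KRT20 (-0.04 and -0.13), KRT4 (-0.29), KRT15 (-0.34), KRT10 (-0.14) and the second probe of KRT16 (-0.30) were not (adjusted p = 0.0769 to 0.925). Both probes of KRT80 became called, at -0.37 and -0.68. Against shNT cells 12 keratin probes were called, among them KRT15 (-1.60, adjusted p = 7.45e-08), KRT10 (-0.62, adjusted p = 1.14e-05) and KRT4 (-0.47, adjusted p = 0.00160). TGFB1 cells themselves carried no virus.

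The differences between the treatment effects were tested over all probes as well. Between TGFB1 and SNAIL effects 14 keratin probes were called, or 24.1% beside 18.4% of all probes. Between TGFB1 and shCDH1 effects 15 were called, or 25.9% beside 19.6%. Between SNAIL and shCDH1 effects 12 were called, or 20.7% beside 20.6%. Each effect is taken from its own control, so a difference between effects can also arise from the controls. KRT20 (ILMN_1794729) averaged 6.23 in TGFB1 cells, 6.28 in cells labelled SNAIL and 6.21 in shCDH1 cells. Its controls averaged 10.63 in parental, 6.27 in lacZ and 6.80 in shNT cells. KRT4 and both KRT16 probes were likewise near background in all 3 treated groups and higher in parental than in lacZ or shNT cells. In the simple epithelial class the SNAIL effect went further down than the shCDH1 effect for KRT7, KRT8, KRT19 and both KRT18 probes. The differences of effects were -1.30 for KRT8 and -2.15 for the NM_000224 probe of KRT18, and the 95% confidence interval for KRT7 was -1.29 to -0.71 (adjusted p at most 3.06e-06 by limma for all 5 probes). No size is given for KRT19 and the NM_199187 probe of KRT18, which were near background in cells labelled SNAIL. Of the 2 KRT20 probes, near background in all 4 of these groups, ILMN_1794729 went the other way (fitted 0.60, adjusted p = 0.0450) and ILMN_2219867 was not called (-0.07, adjusted p = 0.875). The ILMN_1794729 call was lost without lacZ replicate 1 or 2, shCDH1 replicate 1 or 2, shNT replicate 2 or 3, or SNAIL replicate 1 or 3 (adjusted p = 0.0538 to 0.135). It was also lost with the arrays of the same description number averaged (adjusted p = 0.215).

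Keratin filaments are held at desmosomes and hemidesmosomes by linker proteins, and 16 of the 17 genes listed for this role had a probe. With TGFB1 2 were higher, 7 lower and 7 not called, with a median log2 difference of -0.22. In cells labelled SNAIL none was higher, 12 were lower and 4 not called, with a median of -1.44. In shCDH1 cells 3 were higher, 9 lower and 4 not called, with a median of -0.68. Over all probes the medians were the same -0.00, -0.00 and 0.01 given above, with 9.81%, 12.5% and 12.5% called higher and 10.6%, 11.6% and 10.3% called lower. PPL (periplakin), which ties keratin to the cell border, averaged 6.37 ± 0.14 in TGFB1 cells and 8.85 ± 0.05 in parental cells, 6.55 ± 0.17 in cells labelled SNAIL and 8.91 ± 0.14 in lacZ cells, and 6.50 ± 0.14 in shCDH1 cells and 9.09 ± 0.22 in shNT cells (SD, n = 3 each). It was near background in all 3 treated groups, at least 3.46-fold, 3.61-fold and 4.09-fold lower (adjusted p = 4.10e-15, 8.39e-15 and 1.06e-15 by limma).

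Of the other linkers, ITGB4, DSC2, PKP2 and PKP3 were lower in all 3 comparisons. JUP, EVPL and FAM83H were called lower in cells labelled SNAIL and shCDH1 cells but not with TGFB1. PKP3 averaged 7.46 in TGFB1 and 8.28 in parental cells. It was at least 2.35-fold lower in cells labelled SNAIL and at least 1.68-fold lower in shCDH1 cells. Differences between the treatment effects were not tested for these genes. ITGB4, the integrin that anchors keratin at hemidesmosomes, was at least 3.24-fold lower with TGFB1, at least 4.12-fold in cells labelled SNAIL and at least 5.23-fold in shCDH1 cells. JUP (plakoglobin), the desmosomal plaque protein, had log2 differences of -3.70 in cells labelled SNAIL and -3.12 in shCDH1 cells (adjusted p = 5.71e-19 and 4.11e-17 by limma), and of -0.33 with TGFB1 (adjusted p = 0.0930). EVPL (envoplakin) was at least 3.98-fold lower in cells labelled SNAIL (adjusted p = 2.86e-15), and differed by -1.46 on the log2 scale in shCDH1 cells (adjusted p = 5.86e-10) and by 0.24 with TGFB1 (adjusted p = 0.246). The desmosomal cadherin DSC2 had log2 differences of -1.27 with TGFB1, -3.09 in cells labelled SNAIL and -0.98 in shCDH1 cells. The plaque protein PKP2 had -1.33 with TGFB1 and -0.93 in cells labelled SNAIL, and was at least 3.27-fold lower in shCDH1 cells. FAM83H, which organises keratin in enamel-forming cells, was at least 4.14-fold lower in shCDH1 cells (adjusted p = 1.69e-11), and had log2 differences of -1.35 in cells labelled SNAIL (adjusted p = 9.08e-07) and -0.16 with TGFB1 (adjusted p = 0.659). Not all listed linkers fell. ITGA6 averaged 9.79 in TGFB1 and 9.16 in parental cells, 9.29 in shCDH1 and 8.65 in shNT cells, but 7.64 in cells labelled SNAIL and 9.18 in lacZ cells. DSP averaged 9.99 in TGFB1 and 9.47 in parental cells, but 9.47 in shCDH1 and 9.85 in shNT cells. In cells labelled SNAIL DSP averaged 8.07, against 9.95 in lacZ cells.

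**Figure D4:**
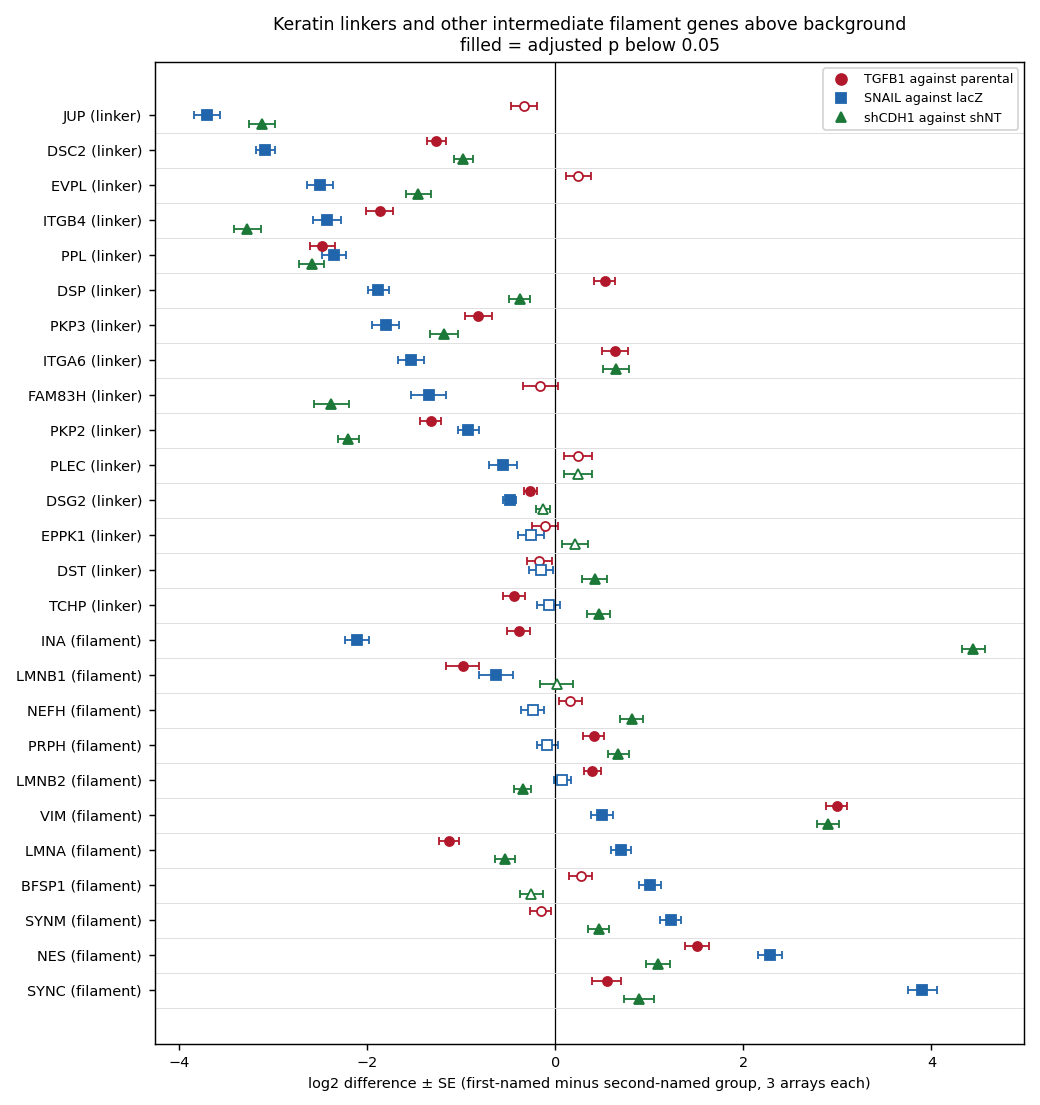
Log2 difference ± standard error (horizontal axis) of genes for keratin linkers and for other intermediate filament proteins that were above background in a group, in TGFB1 against parental, SNAIL against lacZ and shCDH1 against shNT cells (3 arrays a group). Filled symbols passed an adjusted p of 0.05. PPL lies at -2.48, -2.36 and -2.59, JUP is filled in 2 of the 3 comparisons and INA stands farthest to the right, in shCDH1 cells.

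Of 16 genes measured for intermediate filaments other than keratins, 5, 6 and 7 were higher and 3, 2 and 2 lower in TGFB1 cells, cells labelled SNAIL and shCDH1 cells, each against its control. Their median log2 differences were 0.16, 0.12 and 0.10, and the shares over all probes are those given for the linkers. Above background in a group were 11 of the 16. VIM averaged 13.26 ± 0.15 in TGFB1 cells and 10.27 ± 0.08 in parental cells, 13.35 ± 0.05 in cells labelled SNAIL and 12.86 ± 0.04 in lacZ cells, and 13.35 ± 0.09 in shCDH1 cells and 10.45 ± 0.36 in shNT cells (SD, n = 3 each). All 3 differences were called (log2 2.99, 0.50 and 2.90), and the second was lost without normalization between arrays (adjusted p = 0.162). NES (nestin), a filament protein of progenitor cells, was higher in all 3, by at least 1.90-fold, 3.91-fold and 1.57-fold (adjusted p at most 7.19e-08 by limma). SYNC (syncoilin) rose most in cells labelled SNAIL, by at least 11.9-fold (adjusted p = 2.67e-18). INA (internexin), a neuronal filament protein, stood at 11.32 ± 0.11 in shCDH1 cells and 6.88 ± 0.25 in shNT cells, and at 6.12 ± 0.08 in cells labelled SNAIL and 8.23 ± 0.06 in lacZ cells. The means of shNT cells and of cells labelled SNAIL were near background, with 1 of 3 and 0 of 3 arrays above it. INA was thus at least 19.0-fold higher in shCDH1 cells (adjusted p = 7.83e-22) and at least 2.25-fold lower in cells labelled SNAIL (adjusted p = 2.49e-14), and differed by -0.39 on the log2 scale with TGFB1 (adjusted p = 0.0221). The shNT control was itself at least 2.43-fold below parental cells, which averaged 8.36 (adjusted p = 1.07e-09 by limma). The nuclear lamin LMNA differed by -1.14 with TGFB1, 0.70 in cells labelled SNAIL and -0.54 in shCDH1 cells, each called. LMNB1 differed by -0.99 with TGFB1 and -0.63 in cells labelled SNAIL (adjusted p = 9.03e-05 and 0.00808), and SYNM (synemin) by 1.22 in cells labelled SNAIL and 0.46 in shCDH1 cells (adjusted p = 3.55e-10 and 0.00206).

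Of 14 genes measured for the cornified envelope, which accompanies keratins in the outer skin, 1, 1 and 0 were higher and 4, 3 and 6 lower in TGFB1 cells, cells labelled SNAIL and shCDH1 cells. Their median log2 differences were -0.00, -0.15 and -0.13, and the shares over all probes are again those given for the linkers. Only 8 of the 14 were above background in a group, so the counts and medians take in genes near background. In shCDH1 cells the lower call of CSTA (cystatin A) came with both groups near background, at means of 6.11 and 6.68 in shNT cells. SPRR3, a small proline-rich envelope protein, averaged 6.52 ± 0.11 in TGFB1 cells and 8.73 ± 0.15 in parental cells, 6.08 ± 0.13 in cells labelled SNAIL and 7.44 ± 0.13 in lacZ cells, and 6.34 ± 0.15 in shCDH1 cells and 7.97 ± 0.47 in shNT cells (SD, n = 3 each). All 3 treated groups were near background, and SPRR3 was at least 3.19-fold, 1.30-fold and 1.88-fold lower in them (adjusted p at most 5.50e-08 by limma). SPRR1A and SPRR1B were also lower in all 3, though SPRR1B in cells labelled SNAIL lost its call without lacZ replicate 3 (-0.35, adjusted p = 0.0883). SPRR2A was at least 1.24-fold lower with TGFB1 (adjusted p = 0.00928 by limma) and at least 1.78-fold lower in shCDH1 cells (adjusted p = 2.07e-09), the TGFB1 call being lost without parental replicate 1 (adjusted p = 0.0938). With lacZ cells as control, TGFB1 cells had no call for SPRR1A (-0.25, adjusted p = 0.188), SPRR1B (-0.07, adjusted p = 0.833) or SPRR2A (0.23, adjusted p = 0.428). In lacZ against parental cells 3 of the 14 genes were lower and 0 higher, beside 3.8% and 4.07% of all probes. In shNT against parental cells 1 was lower and 3 higher, beside 7.13% and 6.88%. CNFN (cornifelin) was higher with TGFB1 (log2 0.45, adjusted p = 0.00863) and in cells labelled SNAIL (0.40, adjusted p = 0.0185), and lower in shCDH1 cells (-0.45, adjusted p = 0.00810). Its SNAIL call was lost without lacZ replicate 1 or 2 or SNAIL replicate 2 (adjusted p = 0.0537 to 0.129), and without normalization between arrays (adjusted p = 0.310).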

How the data were processed

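The labels' protocols state that RNA was isolated with Trizol and cleaned on columns with DNase treatment, and that biotinylated cRNA was made for Illumina arrays, 1 for each of the 18 samples. The deposited table holds linear intensity values that the authors had neither log transformed nor, judged by their differing array medians, normalized between arrays. The scanner and its software are not given in the sources used here, and the design had allowed for values normalized by the authors. Here limma 3.58.1 in R 4.3.3 corrected background (normexp, offset 50), took log2 and quantile normalized the 18 arrays. The 2 probes with values of 0 were left out, leaving 47321. Symbols came from the platform annotation, in which 30113 probes have 1 symbol, 8 have several and 17202 are not listed.

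Means of the 6 groups were fitted together in limma (empirical Bayes with intensity trend, 12 residual degrees of freedom), from which 5 pairs of groups and 3 differences between treatment effects were read. The 3 arrays per group limit the precision, and the median standard error of a difference was 0.13 on the log2 scale. The model was tested on simulated data with independent noise for each array, which cannot show how possible repeats among the arrays affect the p-values. Named keratins were all genes with a probe above background in a group and called in a comparison of 2 groups. Other lists gave up to 4 called members with the largest change per treatment, by the brightest probe of each gene, plus CDH1, SNAI1 and VIM. KRT9, KRT31, KRT73, KRT75, KRT83, ITGA6, DSP, PKP3, CSTA and the 3 called probes near background were named after their values were seen. So were JUP, EVPL, FAM83H, DSC2, PKP2, INA, LMNA and others outside the comparison for which the rule chose them. Members and lists were chosen with earlier results of these data known. Equal replicate numbers did not pair arrays: deviations of equally numbered arrays correlated at -0.10 to 0.19. Detection p-values were not used.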

Additional observations from a re-analysis of the deposited data

How the results depend on the processing

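The counts of keratin probes called stayed within 1.5 times their value under other offsets, no background correction, median centring, no normalization, no intensity trend, 1 probe per gene, the 2 arrays of a group with the same description number averaged first, and the compared groups alone, except as follows. TGFB1 against parental gave 8 in place of 13 when only probes above the median signal were tested (17 keratin probes left) and 7 with lacZ as control. SNAIL against lacZ gave 21 in place of 12 with parental cells as control. Leaving out 1 array at a time gave 11 to 14, 11 to 13 and 9 to 11 for the 3 treatments, 6 to 7 for lacZ against parental and 5 to 10 for shNT against parental. With the replicate number as a block the counts were 13, 12, 10, 9 for lacZ against parental and 8 for shNT against parental, and the check of pairing is given with the methods. Of single values, 2 reversed: SPRR2A with TGFB1 was 0.23 against lacZ cells (adjusted p = 0.428) beside -0.59 against parental cells, and KRT20 (ILMN_1794729) in cells labelled SNAIL was -4.35 against parental cells (fitted, at least 11.9-fold lower) beside 0.01 against lacZ cells. Of the other single values 2186 kept direction and call, 97 lost and 40 gained a call, and the causes were not tested. These counts leave out 799 of 3249 single values (main fit included) that were called neither in the main fit nor in the alternative. Changes of sign among those 799 were not counted. KRT80 (ILMN_2366445) lost its calls in both virus comparisons under most settings. The 39 probes near background became 34 with the median of all probes as threshold and 46 with the 99th percentile. Keratins near background limit what can be said: a difference there may be too small to see at this signal.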
